A study of Mus musculus with 14 samples.

Results

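The genes described here are 10 well-known transcriptional targets of p53, namely Cdkn1a, Plk2, Ccng1, Mdm2, Zmat3, Bax, Bbc3, Perp, Aen and Trp53inp1. They were chosen by name, as the rows of the liver and the stellate cell count tables that carry these symbols, and all 10 were found among the 23420 rows of each table. All 10 passed the filter on low counts in both tables and were tested there. Polyadenylated RNA had been sequenced in 14 mouse libraries from 6 groups, in a series on p62, the autophagy receptor encoded by Sqstm1, in hepatic stellate cells and liver cancer. Stellate cells are the vitamin A-storing, fibroblast-like cells of the liver. Lines of them, p62KO or wild type (WT), were grown with calcipotriol, which activates the vitamin D receptor, or with vehicle, which gave the groups p62KO with calcipotriol, p62KO with vehicle, WT with calcipotriol and WT with vehicle, 2 libraries each. Pieces of whole liver gave 3 p62KO and 3 WT libraries. All 6 of these livers, p62KO and WT, came from mice that had received the liver carcinogen diethylnitrosamine and a high-fat diet, and all 4 stellate cell groups carried the SV40 antigen used to immortalize them, which the livers did not. Nothing in the labels says whether p62 was absent from every cell of the mice, how old the mice were, how long calcipotriol was given, how many lines stood behind each genotype or whether replicate libraries came from separate cultures. A difference between p62KO and WT stellate cells is therefore a difference between the lines used, and the p-values measure only the spread between libraries, which may be technical.

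The transcription factor p53, encoded by Trp53, is stabilised by DNA damage, oncogene activity and other stress, and then activates genes that halt the cell cycle, repair DNA or start apoptosis. One of its targets, Mdm2, encodes the ubiquitin ligase that marks p53 for degradation, so the pathway limits itself. In the liver p53 restrains the growth of damaged hepatocytes. The large T antigen of SV40 binds p53 and interferes with its activation of target genes while making the protein more stable.

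Binding by p53 is directed by a sequence of 2 adjacent half-sites of 10 bases each. RefSeq windows of the 250 bases before the transcript start (GRCm38.p6) were at hand for 7 of the 10 genes, with 11 windows because some genes have several starts. No window was at hand for Zmat3, Perp and Trp53inp1. Windows were searched on both strands for the p53 half-site consensus, without mismatch, and for a full site of 20 bases with no spacer and at most 1 mismatch. A half-site was found in 5 of the 7 genes, against 8.20% of 27025 genes with a window, and a full site in 2 of the 7, Cdkn1a and Ccng1, against 0.093% of those genes. Both searches count overlapping matches, since a full site contains half-sites. In Cdkn1a the full site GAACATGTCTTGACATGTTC began at position -51 from the upstream of the gene's 2 starts, which lies 2790 bases before the other, and a further half-site began at -73. In Ccng1 the full site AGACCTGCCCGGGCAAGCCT ended in a half-site that began at -185. Mdm2 had 1 half-site at -186, Bax 1 at -201 and Aen 1 at -121, while no half-site was matched in the windows of Plk2 and Bbc3. Such matches describe letters in a window and are not evidence of binding. Shown here are the windows of the 2 genes with a full site and of Mdm2 and Bax, each 5′ to 3′ on the gene's strand, with the matched half-sites and full sites in capitals, from chr17:29090729-29090978 on the plus strand for Cdkn1a, and on the minus strand from chr11:40755287-40755536 for Ccng1, chr10:117710759-117711008 for Mdm2 and chr7:45466899-45467148 for Bax.
Cdkn1a: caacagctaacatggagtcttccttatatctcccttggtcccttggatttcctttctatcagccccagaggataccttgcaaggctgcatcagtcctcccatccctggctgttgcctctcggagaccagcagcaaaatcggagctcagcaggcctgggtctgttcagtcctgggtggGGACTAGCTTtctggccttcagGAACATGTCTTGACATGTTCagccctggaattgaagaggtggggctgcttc
Ccng1: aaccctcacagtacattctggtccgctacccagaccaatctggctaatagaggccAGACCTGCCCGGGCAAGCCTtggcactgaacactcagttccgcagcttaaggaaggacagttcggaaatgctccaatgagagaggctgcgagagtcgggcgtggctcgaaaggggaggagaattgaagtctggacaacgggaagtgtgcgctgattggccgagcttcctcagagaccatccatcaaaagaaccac
Mdm2: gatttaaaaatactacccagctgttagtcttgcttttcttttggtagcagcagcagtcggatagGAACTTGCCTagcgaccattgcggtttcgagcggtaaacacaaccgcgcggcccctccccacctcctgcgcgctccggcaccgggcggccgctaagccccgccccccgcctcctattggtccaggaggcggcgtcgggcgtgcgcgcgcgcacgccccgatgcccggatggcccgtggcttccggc
Bax: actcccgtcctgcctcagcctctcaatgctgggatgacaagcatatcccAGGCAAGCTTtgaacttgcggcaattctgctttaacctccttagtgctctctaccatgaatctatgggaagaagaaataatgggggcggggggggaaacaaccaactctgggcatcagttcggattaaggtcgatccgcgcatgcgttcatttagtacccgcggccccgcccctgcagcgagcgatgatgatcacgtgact

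Total counts per library ran between 15207117 and 29079258 in stellate cells and between 17506607 and 20040583 in livers, and levels are given as CPM, reads of the gene relative to the TMM-scaled library total, scaled as usual. Sqstm1 stood between 0.211 and 0.835 CPM in the p62KO stellate libraries, against 316 to 340.3 CPM in WT, and between 1.44 and 2.12 CPM in p62KO livers, against 448 to 583 CPM in WT livers. The stellate cell and myofibroblast markers summed to between 11973 and 22433 CPM in the p62KO lines and between 6992 and 7708 CPM in the WT lines, although Lrat, which defines vitamin A-storing stellate cells, was at 0 in all 8 libraries, and hepatocyte markers reached at most 0.179 CPM. Cholangiocyte markers summed to 182 to 205 CPM in p62KO and 513 to 983 CPM in WT lines, and endothelial markers to 1.63 to 2.66 CPM in p62KO and 4.49 to 9.09 CPM in WT lines, without overlap. Macrophage markers at 14.7 to 54.5 CPM in p62KO spanned the 24.4 to 35.5 CPM of WT lines, and the part of all these markers in the values of the 10 genes was not tested. Hepatocyte markers summed to between 88254 and 146719 CPM in p62KO and between 96284 and 130001 CPM in WT livers. Replicate libraries differed beyond counting error to unequal degrees. The chi-squared per degree of freedom between the 2 calcipotriol-treated p62KO libraries was 200, and it was 61 for vehicle-treated p62KO, 12.2 for calcipotriol-treated WT and 1.66 for vehicle-treated WT libraries. The p62KO vehicle library 1 and the p62KO calcipotriol library 2 had stood apart in earlier work on these data, so results that rest on them are also given without them.

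Per kilobase of exon, the genes were ordered differently in the lines and in the livers, as the plot of levels per kilobase shows. In vehicle-treated WT stellate cells Plk2 was first at 191 ± 6.43 CPM per kb (SD, n = 2), followed by Ccng1, Bax and Mdm2 at 91.7 ± 0.322, 89.6 ± 0.521 and 84.4 ± 3.88 CPM per kb, and Perp was last at 0.121 ± 0.0721 CPM per kb. In WT livers Trp53inp1 and Perp came first at 73.6 ± 14.6 and 71.5 ± 4.61 CPM per kb (SD, n = 3), a pair that did not differ beyond their spread, and Zmat3 came last at 1.77 ± 0.360 CPM per kb. Cdkn1a and Bax, the next in WT livers at 29.4 ± 12.5 and 27.1 ± 5.73 CPM per kb, also lay within their spread, as did Bbc3, Aen and Plk2 at 3.62 ± 0.730, 3.15 ± 0.332 and 2.999 ± 0.481 CPM per kb. The stellate and liver tables were scaled separately, so levels set across them are a description with no test, and tissue, culture and the SV40 antigen cannot be told apart. Plk2 was 63.6 times higher in WT vehicle-treated stellate cells than in WT livers, or 34.2 times with both tables scaled together, and Trp53inp1 was 21.7 times lower, or 40.4 times. The direction for Bbc3 and for Cdkn1a in WT depended on that scaling, with stellate over liver ratios of 1.20 and 1.24 under separate scaling and 0.647 and 0.67 under joint scaling.

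**Figure D1:**
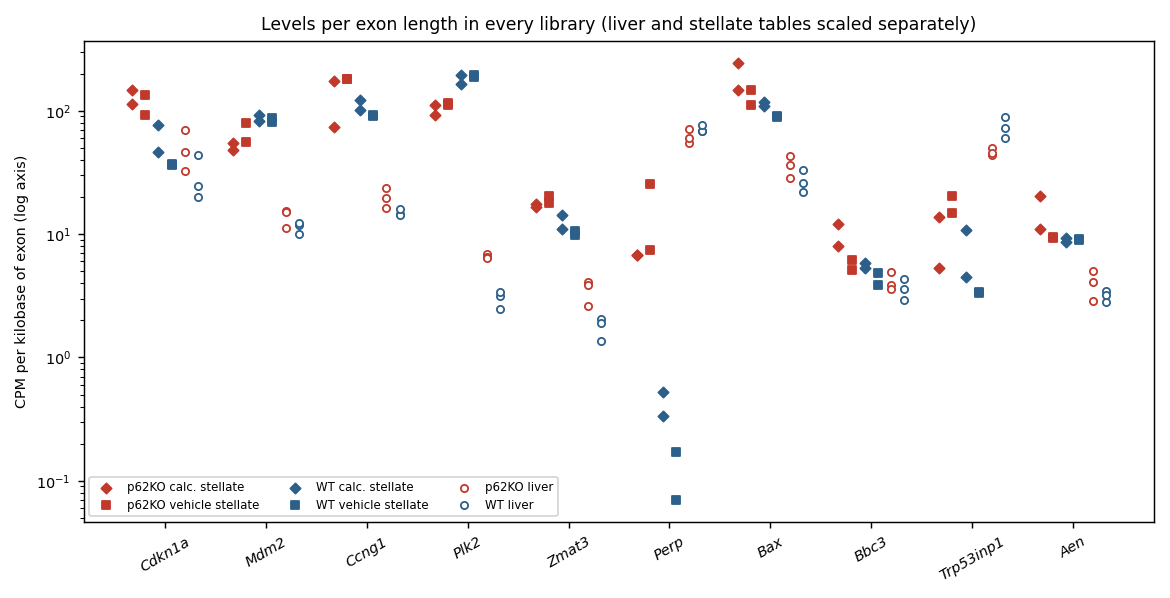
Level of each p53 target gene per kilobase of exon (CPM per kb, log axis) in every library of the 6 groups, with filled points for stellate cells and open points for livers. On average Trp53inp1 and Perp lie highest in WT livers, Plk2 in WT stellate cells with either treatment, Bax in p62KO stellate cells with calcipotriol and Ccng1 in those with vehicle, and Perp averages 0.121 CPM per kb in vehicle-treated WT stellate cells and 71.5 CPM per kb in WT livers.

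The first comparison asked how p53 targets differed between p62KO and WT stellate cells grown with vehicle. Of the 10 genes, 4 rose (Perp, Cdkn1a, Zmat3 and Trp53inp1), 1 fell (Plk2) and 5 did not pass, where 6.95% of the 12681 tested genes rose and 5.94% fell (12.9% together). Every p62KO library was above every WT library for 8 of the 10, against 34.6% of all tested genes, and below for 2, against 34.2%. The median log2 fold change of the 10 genes was 0.73, and that of all tested genes 0.03. When each of the 8 libraries was left out in turn, Perp stayed called in 8 of 8 fits. Cdkn1a, Zmat3 and Trp53inp1 were lost without WT vehicle library 1 or 2 or without p62KO vehicle library 1 (edgeR adjusted p up to 0.112, 0.208 and 0.14), and Plk2 was called in 2 of 8 fits, those without a calcipotriol-treated p62KO library (up to 0.256 in the others). Without both libraries that stood apart, 1 library was left in each p62KO group, taken to vary like the WT pairs. The log2 fold changes were then -0.59 for Mdm2, 0.98 for Ccng1 and 0.335 for Bax.

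Among the genes that halt the cell cycle, Cdkn1a encodes p21, the inhibitor of cyclin-dependent kinases that carries out most of p53's arrest. Cdkn1a had 365 and 250.01 CPM in the p62KO vehicle libraries, against 99.7 and 99.3 CPM in the WT vehicle libraries. Both p62KO libraries lay well above both WT libraries, the first more so, and the log2 fold change was 1.63 ± 0.29 (SE; edgeR adjusted p = 0.0116). Its locus overlaps a gene on the opposite strand, and whether the counting used strand is not given in the sources used here. Plk2, a polo-like kinase of the centrosome and of checkpoint responses, had 322 and 310.0 CPM in p62KO vehicle libraries and 547 and 522 CPM in WT vehicle libraries. The groups did not overlap, with p62KO lower by 0.76 ± 0.18 on the log2 scale (log2 fold change -0.76, SE 0.18; edgeR adjusted p = 0.0313), so this kinase went the opposite way from Cdkn1a. For Ccng1, which encodes cyclin G1, a partner of the phosphatase PP2A that acts on Mdm2, the p62KO vehicle libraries held 637 and 633 CPM and the WT vehicle libraries 321 and 323 CPM. These groups were far apart and each tightly spaced, yet Ccng1 did not pass in the fit across all 4 groups (log2 fold change 0.98 ± 0.35, SE; edgeR adjusted p = 0.0986), where the calcipotriol-treated p62KO libraries differed at 614 and 259.6 CPM. With only the 2 vehicle groups in the fit it passed (edgeR adjusted p = 0.0117).

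Mdm2, the feedback ligase, had 248 and 175 CPM in p62KO vehicle libraries, against 257 and 274 CPM in WT vehicle libraries. Both p62KO libraries were lower, the first only slightly, and Mdm2 did not pass (log2 fold change -0.33 ± 0.21, SE; edgeR adjusted p = 0.336). Zmat3, a zinc-finger RNA-binding protein that acts on splicing and RNA stability in the p53 response, had 159.8 and 139.8 CPM in p62KO and 76.6 and 82.4 CPM in WT vehicle libraries. It rose, with separate groups and a log2 fold change of 0.91 ± 0.19 (SE; edgeR adjusted p = 0.0196).

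Of the genes tied to apoptosis, Perp stood out by size. Perp encodes a tetraspan membrane protein of desmosomes that also serves as an effector of p53-dependent death. It had 49.7 and 14.6 CPM in p62KO vehicle libraries, from 953 and 277 reads, against 0.136 and 0.335 CPM in WT vehicle libraries, from 2 and 5 reads. The log2 fold change was 7.05 ± 0.75 (SE; edgeR adjusted p = 0.00138), and its size rests on 7 reads in WT and on a p62KO pair of which library 1 was more than 3 times library 2. Without p62KO vehicle library 1 it remained called at a log2 fold change of 5.92. The 6 epithelial markers set beside Perp summed to 1.41 and 0.581 CPM in p62KO vehicle libraries 1 and 2. In the WT vehicle libraries they summed to 1.97 and 2.21 CPM. Only 1 of the 6 passed the filter on low counts, and the part of epithelial expression in the Perp values was not tested. Bax, the pore-forming BCL2 family protein, had 128 and 97.4 CPM in p62KO and 78.0 and 77.4 CPM in WT vehicle libraries, Bbc3, which encodes the BH3-only protein PUMA, 11.1 and 9.34 against 8.76 and 7.03 CPM, and Aen, an exonuclease of apoptotic cells, 48.8 and 48.0 against 46.1 and 47.1 CPM in the same order. None of these 3 passed, with log2 fold changes of 0.54 ± 0.26 for Bax, 0.37 ± 0.27 for Bbc3 and 0.05 ± 0.27 for Aen (SE). The Bax locus overlaps an annotated gene on the same strand, whose reads the counts may share. Trp53inp1, a nuclear cofactor that modifies p53 activity and acts in autophagy, had 109 and 80.5 CPM in p62KO and 18.5 and 18.1 CPM in WT vehicle libraries. The groups were far apart, and the log2 fold change was 2.37 ± 0.51 (SE; edgeR adjusted p = 0.0213).

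**Figure D2:**
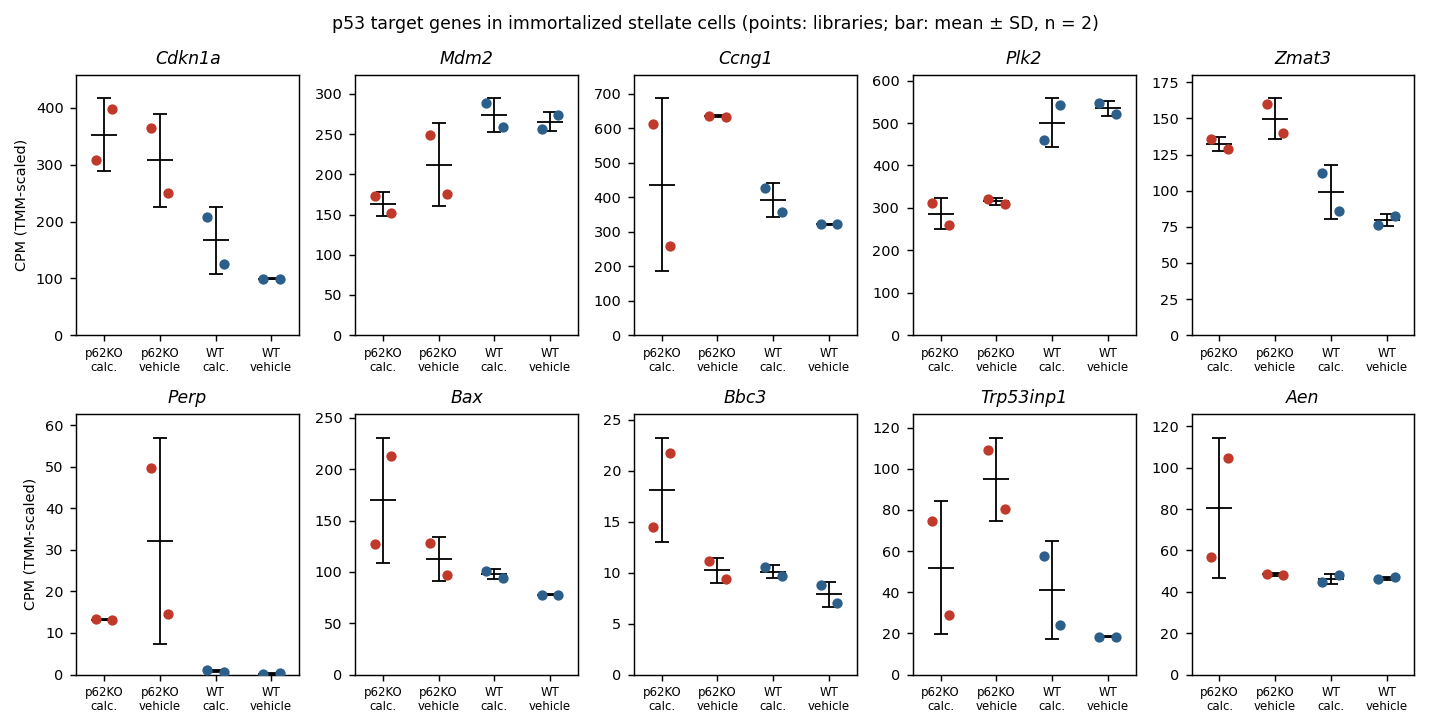
CPM of each p53 target gene in every stellate cell library (points), with group mean (line) and SD (bar, n = 2), in the order p62KO calcipotriol, p62KO vehicle, WT calcipotriol, WT vehicle. Cdkn1a, Zmat3 and Perp lie higher in every p62KO than in every WT library and Plk2 lower, while the 2 calcipotriol-treated p62KO libraries differ widely for Ccng1 at 614 and 259.6 CPM.

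The second comparison set p62KO against WT stellate cells grown with calcipotriol. Here 2 of the 10 genes rose (Perp and Cdkn1a), 2 fell (Plk2 and Mdm2) and 6 did not pass, where 10.3% of the 12681 tested genes rose and 9.53% fell (19.8% together). Every p62KO library was above every WT library for 6 of the 10, against 32.4% of all tested genes, and below for 2, against 32.6%. The median log2 fold change was 0.61, against -0.01 for all tested genes. With single libraries left out, Perp was lost without WT calcipotriol library 2 (edgeR adjusted p = 0.0677), Plk2 without any 1 of the 4 WT libraries (up to 0.152), and Cdkn1a and Mdm2 without any 1 of these or without p62KO calcipotriol library 2 (up to 0.223 and 0.222).

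Cdkn1a had 307 and 398 CPM in the p62KO calcipotriol libraries, against 208 and 125 CPM in the WT calcipotriol libraries. The p62KO libraries were above both WT libraries, which themselves differed more than the WT vehicle pair, and the log2 fold change was 1.08 ± 0.29 (SE; edgeR adjusted p = 0.0347). Plk2 had 312 and 260.4 CPM in p62KO and 459 and 541 CPM in WT calcipotriol libraries, again without overlap (log2 fold change -0.81 ± 0.18, SE; edgeR adjusted p = 0.0218). Mdm2 had 173 and 152 CPM in p62KO, below the 288 and 258 CPM of WT calcipotriol libraries, and fell by 0.75 on the log2 scale (SE 0.21; edgeR adjusted p = 0.0406). Perp had 13.3 and 13.1 CPM in p62KO calcipotriol libraries, from 351 and 367 reads, and 1.03 and 0.653 CPM in WT calcipotriol libraries, from 18 and 12 reads. The groups were widely separated, with a log2 fold change of 3.96 ± 0.61 (SE; edgeR adjusted p = 0.0058). With only the 2 calcipotriol groups in the fit, Perp stayed called, while Plk2, Cdkn1a and Mdm2 did not pass (edgeR adjusted p = 0.0902, 0.0724 and 0.0969). In the fit across all 4 groups Cdkn1a and Perp thus rose, and Plk2 fell, with vehicle as well as with calcipotriol, in separate pairs of libraries of what may be the same lines.

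The apoptosis genes Bbc3, Bax and Aen fell just short of the threshold. Bbc3 had 14.5 and 21.8 CPM in p62KO and 10.6 and 9.64 CPM in WT calcipotriol libraries, Bax 127 and 213 against 101 and 94.5 CPM, and Aen 56.8 and 105 against 44.6 and 48.0 CPM. For all 3 the p62KO libraries were above the WT libraries, and library 2 was the higher of the pair. Their log2 fold changes were 0.84 ± 0.27, 0.80 ± 0.26 and 0.80 ± 0.27 (SE), with edgeR adjusted p-values of 0.0581, 0.0604 and 0.0662, and the Wald test of DESeq2 called all 3. Without p62KO calcipotriol library 2, which stood apart, their log2 fold changes were 0.50, 0.36 and 0.28, with 1 library left in that group. Whether edgeR called Bax and Aen then depended on whether p62KO vehicle library 1 was kept, and Bbc3 was not called either way. Zmat3 had 136 and 129 CPM in p62KO and 112 and 85.7 CPM in WT calcipotriol libraries and did not pass (log2 fold change 0.42 ± 0.19, SE). For Ccng1 and Trp53inp1 the groups overlapped. Ccng1 had 614 and 259.6 CPM in p62KO, on either side of the 427 and 357 CPM of WT, and Trp53inp1 had 74.8 and 28.95 CPM in p62KO, interleaved with the 57.8 and 24.2 CPM of WT. The direction of Ccng1 depended on which p62KO library was kept, with a log2 fold change of -0.59 without library 1 and 0.63 without library 2. Without p62KO calcipotriol library 1, when 6052 of all tested genes were called, Ccng1, Plk2 and Mdm2 fell, while Bbc3, Bax, Aen, Cdkn1a and Perp rose. Without both libraries that stood apart, 1 library was left in each p62KO group, and the log2 fold change of Ccng1 was 0.63. In this fit and in those without 1 p62KO calcipotriol library, 1 library stood for the p62KO calcipotriol group. Calls from these fits therefore do not measure the spread of that group.

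Chromosomes moved as blocks in these lines, and the genes are given beside the medians of their chromosomes, which the plot of genotype differences marks. On chromosome 10, which holds Mdm2 and Perp, the median log2 fold change of 626 tested genes was -0.64 with vehicle and -0.71 with calcipotriol. Mdm2 lay near that median with calcipotriol, at -0.75, and between it and 0 with vehicle, at -0.33, and with chromosome medians removed it stood at 0.32 with vehicle and -0.04 with calcipotriol and was not called. Perp lay far from it on the other side, at 7.69 and 4.67 after removal. On chromosome 13, the site of Plk2, the medians were 0.42 and 0.23, so that Plk2 became lower still, at -1.18 and -1.03, and stayed called. On chromosome 3, the site of Zmat3, the median was 0.43 with vehicle, and Zmat3 was no longer called after removal (0.49, edgeR adjusted p = 0.164). Cdkn1a on chromosome 17 stayed called with vehicle (1.54, edgeR adjusted p = 0.0177) and not with calcipotriol (0.80, edgeR adjusted p = 0.106). Trp53inp1 on chromosome 4 stayed called with vehicle (2.03, edgeR adjusted p = 0.0456). In liver the chromosome 10 median was 0.01. What moved these chromosomes was not tested.

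**Figure D3:**
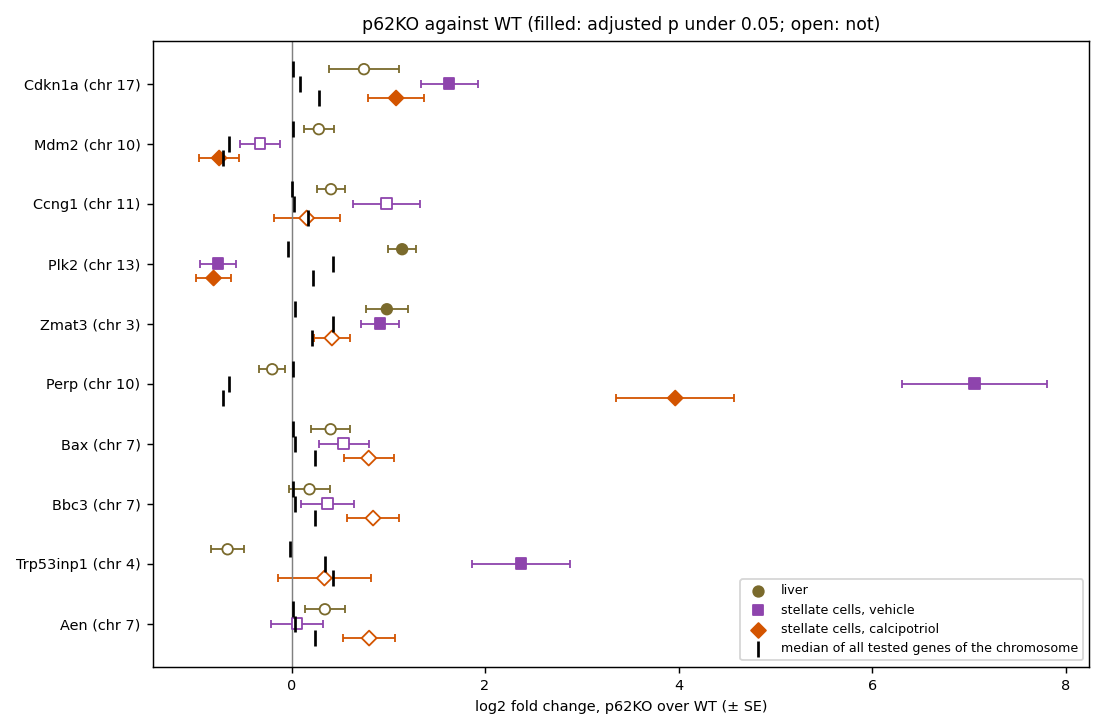
Log2 fold change of p62KO over WT for each p53 target gene with its SE (bars) in liver and in vehicle- and calcipotriol-treated stellate cells, filled where the adjusted p was under 0.05 and open otherwise, with the median log2 fold change of each gene's chromosome as a tick. Plk2 is above 0 in liver (1.14) and below it in both stellate cell comparisons (-0.76 and -0.81), and Mdm2 lies near the chromosome 10 median of -0.71 with calcipotriol, while with vehicle its -0.33 lies between the median of -0.64 and 0.

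Calcipotriol was then set against vehicle within each genotype. By edgeR 0 of the 10 genes passed in either genotype, and 0.00% of the 12681 tested genes did, although 4 of the 10 (1714 of all genes) in p62KO and 2 of the 10 (301 of all genes) in WT had an unadjusted p under 0.05. DESeq2 called 0 of the 10 in either genotype, and 50 of all genes in p62KO and 16 in WT.

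In p62KO cells the genes did not share a direction. Every calcipotriol library was above every vehicle library for 2 of the 10, against 21.4% of all tested genes, and below for 5, against 19.0%. Bbc3 had 14.5 and 21.8 CPM with calcipotriol against 11.1 and 9.34 CPM with vehicle (log2 fold change 0.82 ± 0.27, SE), and Aen 56.8 and 105 CPM with calcipotriol against 48.8 and 48.0 CPM with vehicle (0.74 ± 0.27). Those 2 were the genes with higher calcipotriol libraries, and in both the larger value came from library 2. Perp had 13.3 and 13.1 CPM with calcipotriol against 49.7 and 14.6 CPM with vehicle (-1.28 ± 0.50), Trp53inp1 74.8 and 28.95 CPM with calcipotriol against 109 and 80.5 CPM with vehicle (-0.87 ± 0.48) and Mdm2 173 and 152 CPM with calcipotriol against 248 and 175 CPM with vehicle (-0.38 ± 0.21). Ccng1 and Zmat3 were the others with lower calcipotriol libraries, and the edgeR adjusted p-values of the 10 genes ran between 0.361 and 0.695. Without p62KO calcipotriol library 1, Bbc3, Bax and Aen rose, Ccng1 and Trp53inp1 fell, and 4559 of all genes were called, so this comparison turns on which of the 2 unlike calcipotriol libraries is kept.

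In WT cells every calcipotriol library was above every vehicle library for 7 of the 10 genes, against 25.0% of all tested genes, and below for 0, against 29.3%. Cdkn1a had 208 and 125 CPM with calcipotriol and 99.7 and 99.3 CPM with vehicle (log2 fold change 0.74 ± 0.29, SE), Trp53inp1 57.8 and 24.2 CPM with calcipotriol and 18.5 and 18.1 CPM with vehicle (1.16 ± 0.50), and Perp 1.03 and 0.653 CPM with calcipotriol and 0.136 and 0.335 CPM with vehicle (1.81 ± 0.89). In each of these 3 genes, library 1 with calcipotriol was the highest of the 4. Zmat3, Bbc3, Bax and Ccng1, the others of the 7, had log2 fold changes between 0.28 and 0.35, while Plk2, Mdm2 and Aen overlapped between the groups. The difference between the responses of p62KO and WT cells was tested as an interaction, and 0 of the 10 passed by edgeR or DESeq2, with 2 at an unadjusted p under 0.05, and 0.00% of all tested genes did (677 at an unadjusted p under 0.05). The interaction was -3.09 ± 1.01 for Perp and -2.03 ± 0.69 for Trp53inp1 (log2, SE; edgeR adjusted p = 0.708 for both), the 2 genes with the smallest p. Without p62KO calcipotriol library 1 it passed for 2514 of all tested genes and for 3 of the 10, positive for Aen and negative for Ccng1 and Trp53inp1.

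**Figure D4:**
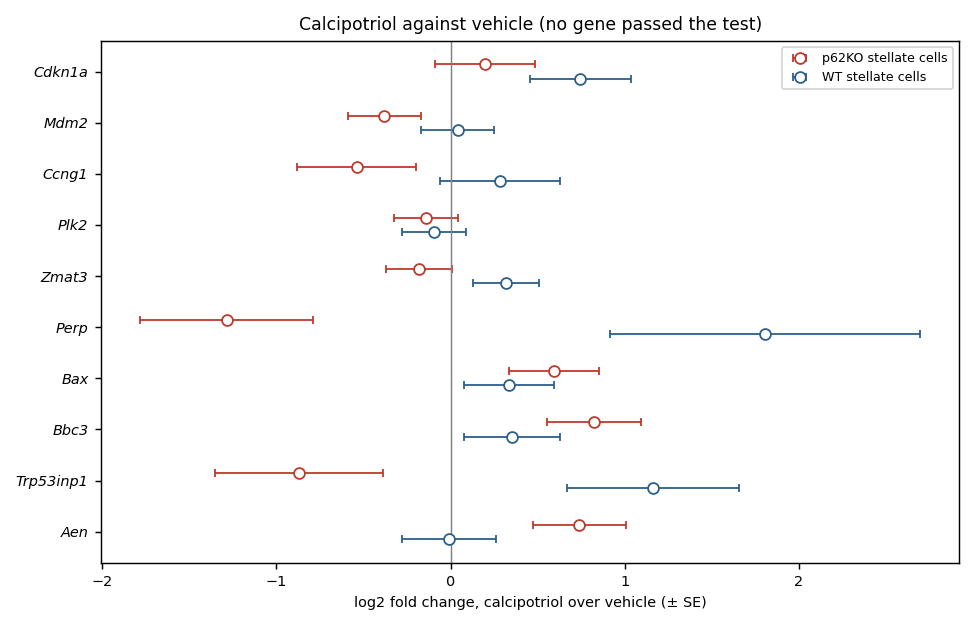
Log2 fold change of calcipotriol over vehicle for each p53 target gene with its SE (bars), in p62KO and in WT stellate cells. None passed the edgeR test, and Perp and Trp53inp1 lie below 0 in p62KO cells (-1.28 and -0.87) and above it in WT cells (1.81 and 1.16).

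The remaining comparison asked how p62KO livers differed from WT livers after carcinogen and diet. Of the 10 genes 2 rose (Plk2 and Zmat3), 0 fell and 8 did not pass by edgeR, where 4.48% of the 12851 tested genes rose and 3.45% fell (7.94% together). At an unadjusted p under 0.05, 3 of the 10 were higher and 1 lower, against 4182 of all tested genes in either direction. Every p62KO liver was above every WT liver for 3 of the 10 (Plk2, Zmat3 and Ccng1), against 18.4% of all tested genes, and below for 1 (Trp53inp1), against 19.2%. The median log2 fold change was 0.37, against 0.02 for all tested genes. In bulk tissue fewer cells of a type and less RNA per cell cannot be told apart.

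Plk2 had 19.3, 18.2 and 18.1 CPM in p62KO livers, against 6.89, 8.83 and 9.47 CPM in WT livers. The p62KO livers were close to one another and about 2 times the WT livers, with a log2 fold change of 1.14 ± 0.15 (SE; edgeR adjusted p = 0.0264). Zmat3 had 31.6, 29.98 and 20.5 CPM in p62KO and 15.9, 10.6 and 14.9 CPM in WT livers, without overlap (log2 fold change 0.98 ± 0.21, SE; edgeR adjusted p = 0.0423). Ccng1 had 82.7, 68.7 and 57.2 CPM in p62KO and 50.9, 50.3 and 56.1 CPM in WT livers. Its groups touched closely at p62KO liver 3 and WT liver 3, and it did not pass (log2 fold change 0.41 ± 0.15, SE; edgeR adjusted p = 0.112). Trp53inp1 had 271, 237 and 247 CPM in p62KO livers, all below the 323, 389.5 and 480.4 CPM of WT livers, and missed the threshold (log2 fold change -0.66 ± 0.17, SE; edgeR adjusted p = 0.0558), while DESeq2 called it lower.

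The spread between animals was wide for Cdkn1a, with 88.5, 126 and 189 CPM in p62KO livers and 54.2, 67.1 and 119 CPM in WT livers. The groups overlapped, and the log2 fold change of 0.75 ± 0.36 (SE) did not pass (edgeR adjusted p = 0.19). Mdm2 had 48.1, 47.7 and 35.2 CPM in p62KO and 37.1, 31.6 and 39.1 CPM in WT livers, and Bax had 37.2, 31.4 and 24.7 CPM in p62KO and 28.9, 22.5 and 19.1 CPM in WT livers. For Aen, p62KO livers had 25.7, 21.0 and 14.8 CPM and WT livers 17.8, 14.4 and 16.4 CPM. In Mdm2, Bax and Aen p62KO liver 1 was the highest and p62KO liver 3 the lowest of its group, the reverse of Cdkn1a. Bbc3 ran between 6.52 and 8.87 CPM in p62KO and between 5.27 and 7.91 CPM in WT livers, and Perp between 108 and 139 CPM in p62KO and between 134 and 150.0 CPM in WT livers. Their log2 fold changes were 0.28 ± 0.15 for Mdm2, 0.40 ± 0.20 for Bax, 0.34 ± 0.20 for Aen, 0.19 ± 0.21 for Bbc3 and -0.20 ± 0.13 for Perp (SE), with edgeR adjusted p-values between 0.201 and 0.563.

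Neither liver call held when single animals were left out. Plk2 was called in 2 of 6 such fits and lost without any WT liver or p62KO liver 2 (edgeR adjusted p up to 0.12), and Zmat3 was called in 1 of 6 and lost also without p62KO liver 1 (up to 0.153), while without p62KO liver 3, when 3669 of all tested genes were called against 1020 with every liver kept, Plk2, Zmat3, Ccng1, Mdm2 and Aen rose and Trp53inp1 fell. Marker genes of other cells also differed between these livers. Macrophage markers rose in 5 of 8 cases and summed to between 594 and 686 CPM in p62KO and between 242 and 429.6 CPM in WT livers, stellate cell and myofibroblast markers rose in 5 of 11 (783 to 1327 CPM in p62KO, 455 to 543 CPM in WT), and cholangiocyte markers in 3 of 7 (186 to 642 CPM in p62KO, 68.5 to 119 CPM in WT). These counts are by edgeR, by which 4.48% of all tested genes rose and 3.45% fell. DESeq2 called 7 macrophage, 8 stellate cell and myofibroblast and 7 cholangiocyte markers higher, and 2442 of all genes in either direction. Of 6 endothelial and 6 T and NK cell markers 0 passed by edgeR or DESeq2, with 1 and 0 at an unadjusted p under 0.05. Of 8 hepatocyte markers 1, Ttr, fell by edgeR and 2 by DESeq2. Plk2 and Zmat3 rose in the livers where these markers rose. Both were at higher levels in vehicle-treated stellate cells than in livers of the same genotype, as were Mdm2, Ccng1, Bax and Aen, which did not pass in liver. The part of cell composition in these values was not tested. Ccng1 lies 9.44 Mb from Sqstm1 on chromosome 11, and the 192 tested genes within 15 Mb of Sqstm1 had a median log2 fold change of -0.04 in liver. Of these 192 genes, 10 rose and 14 fell by edgeR, against 4.48% and 3.45% of all tested genes. The part of the Sqstm1 region in the Ccng1 values was not tested.

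**Figure D5:**
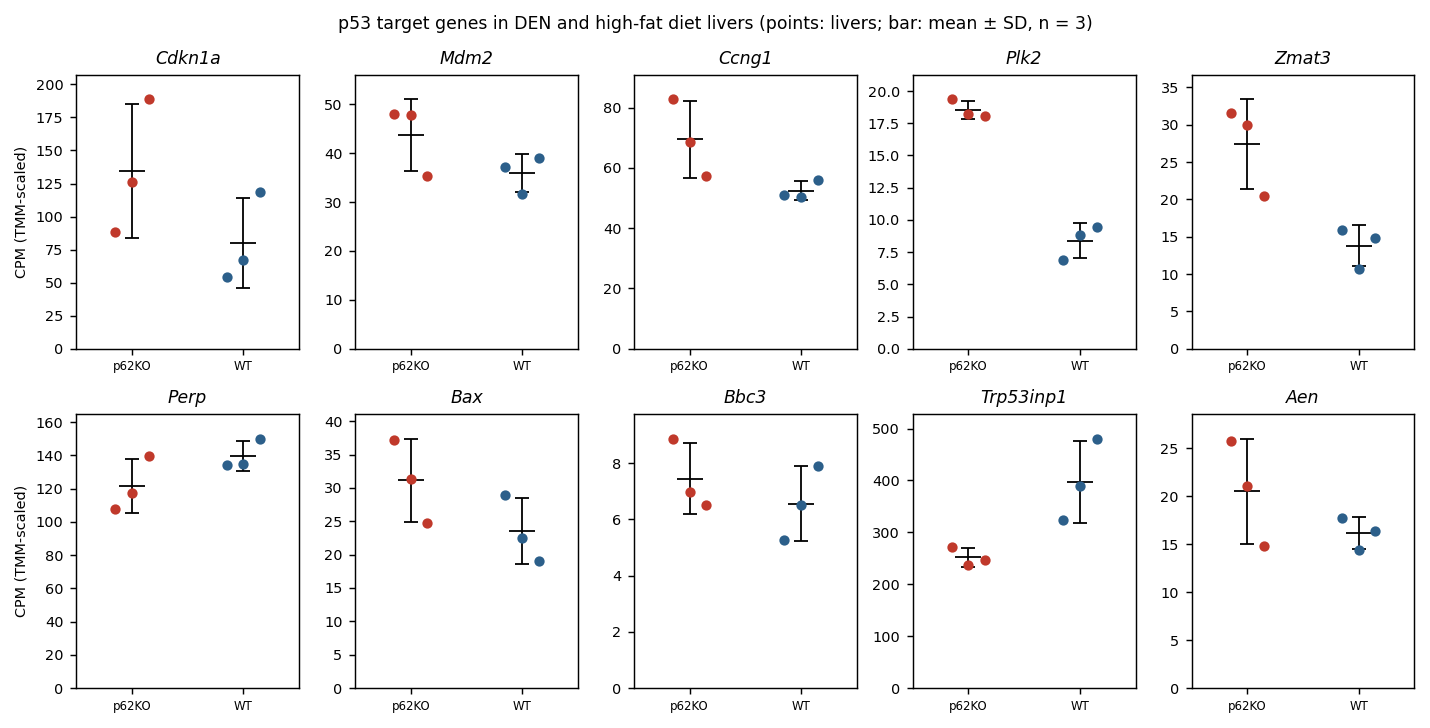
CPM of each p53 target gene in every liver library (points), with group mean (line) and SD (bar, n = 3), p62KO on the left and WT on the right. The p62KO livers lie above all WT livers for Plk2 (18.1 to 19.3 CPM against 6.89 to 9.47 CPM), Zmat3 and Ccng1 and below all of them for Trp53inp1.

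The gene of p53 itself, Mdm4 and Cdkn2a did not pass in any of these comparisons by edgeR. Trp53 had 156 and 176 CPM in p62KO calcipotriol, 151 and 143 CPM in p62KO vehicle, 136 and 151 CPM in WT calcipotriol and 153 and 143 CPM in WT vehicle libraries. In livers it had 20.8, 19.6 and 17.5 CPM in p62KO and 18.9, 15.8 and 14.8 CPM in WT. Its log2 fold change for p62KO over WT was -0.01 ± 0.17 with vehicle, 0.21 ± 0.17 with calcipotriol and 0.23 ± 0.13 in liver (SE). Mdm4, the relative of Mdm2 that masks p53's activation domain, had log2 fold changes of -0.68 ± 0.28 with vehicle, -0.51 ± 0.28 with calcipotriol and 0.13 ± 0.13 in liver (SE). Cdkn2a, whose ARF product holds Mdm2 away from p53 and whose other product p16 inhibits cyclin-dependent kinases, had 191 and 356 CPM in p62KO calcipotriol, 237 and 148 CPM in p62KO vehicle, 204 and 187 CPM in WT calcipotriol and 153 and 161 CPM in WT vehicle libraries. In livers it was low and uneven, with 11.6, 4.04 and 0.750 CPM in p62KO and 0.0506, 1.59 and 1.17 CPM in WT, and gene-level counts do not separate its products.

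A list of other p53 targets was set beside the 10 genes, of which 39 were in the tables. With vehicle, 7 of these 39 rose and 2 fell in p62KO stellate cells by edgeR, where 6.95% of all tested genes rose and 5.94% fell. DESeq2 called 14 higher and 4 lower, and 2336 of all genes. The median log2 fold change was 0.70, close to the 0.73 of the 10 genes. The DNA damage-inducible gene Gadd45a averaged 38.2 ± 2.30 CPM in p62KO and 7.45 ± 0.354 CPM in WT vehicle cells (SD, n = 2 each; log2 fold change 2.36 ± 0.26, SE). Sesn2, a stress-induced inhibitor of mTORC1, rose by 1.23 ± 0.23, and Cd82, a tetraspanin, by 1.30 ± 0.25 (log2, SE). Zfp365 and Apaf1, the apoptosome scaffold, fell, with log2 fold changes of -0.99 ± 0.20 and -0.92 ± 0.22 (SE). With calcipotriol 6 rose and 3 fell by edgeR, where 10.3% of all tested genes rose and 9.53% fell. DESeq2 called 7 higher and 4 lower, and 3355 of all genes. The median was 0.28. Named among those that rose were Gadd45a (2.21), Sesn2 (1.66) and the stress cytokine gene Gdf15 (2.03). Those that fell were Zfp365 (-1.40), Sesn1 (-1.41), a relative of Sesn2, and Apaf1 (-1.28). Gadd45a and Sesn2 were thus higher with either treatment, while every target of this list that edgeR called lower lies on chromosome 10. Of all tested genes that edgeR called lower, 176 of 753 with vehicle and 252 of 1209 with calcipotriol lie on that chromosome. DESeq2 also called lower Pml with vehicle and Pmaip1 with calcipotriol, which lie on other chromosomes and were named after their values were seen.

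Among 19 tested p53 regulators, 0 rose and 2 fell with vehicle by edgeR (0 and 6 by DESeq2, 0 and 7 at an unadjusted p under 0.05), the p53 kinase gene Hipk2 (-1.53 ± 0.34) and the acetyltransferase gene Crebbp (-0.83 ± 0.23; log2, SE). With calcipotriol 1 rose, Ppp1r13l (1.11 ± 0.29), which encodes the p53 inhibitor iASPP, and 2 fell, the deacetylase gene Sirt1 (-2.0 ± 0.45) and the checkpoint kinase gene Chek2 (-0.91 ± 0.25). These 2 and 3 of 19 regulators lay near the 12.9% and 19.8% of all tested genes called with vehicle and with calcipotriol. With vehicle every p62KO library was below every WT library for 13 of the 19 and above for 1. Over all tested genes these shares were 34.2% and 34.6%. With calcipotriol the counts were 8 and 2, against 32.6% and 32.4%. Median log2 fold changes of the regulators were -0.40 and -0.20, against 0.03 and -0.01 for all tested genes. With vehicle DESeq2 called 2336 of all genes, and 3770 had an unadjusted p under 0.05 by edgeR. Counted over the 10 genes and both lists, 2 of 5 genes that fell with vehicle and 5 of 7 that fell with calcipotriol by edgeR lie on chromosome 10. Of all tested genes that fell, 176 of 753 with vehicle and 252 of 1209 with calcipotriol lie there. With chromosome medians removed, edgeR called no gene of the 10 or of the lists on that chromosome lower. Of all tested genes it then called 980 with vehicle and 1367 with calcipotriol, against 1634 and 2509 before. The 5 that had fallen with calcipotriol stayed below 0 there. Their log2 fold changes were -0.04 for Mdm2, -1.29 for Sirt1, -0.69 for Zfp365, -0.69 for Sesn1 and -0.57 for Apaf1. In calcipotriol against vehicle 0 genes of either list passed by edgeR or DESeq2. At an unadjusted p under 0.05 were 10 targets and 2 regulators in p62KO (1714 of all genes) and 5 targets and 1 regulator in WT (301 of all genes). The values with the smallest p were Sesn2 (0.72) and Ppp1r13l (0.92) in p62KO and Gadd45a (0.71) and Hipk2 (-0.80) in WT cells, with Fas (-2.5) and Hipk2 (1.44) for the interaction.

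In p62KO livers 6 of 37 tested other targets rose and 0 fell by edgeR, where 4.48% of all tested genes rose and 3.45% fell. DESeq2 called 11 higher and 4 lower, and 2442 of all genes. At an unadjusted p under 0.05, 17 were higher and 6 lower, against 4182 of 12851 tested genes in either direction. The median log2 fold change was 0.37, the same to 2 decimals as that of the 10 genes. Targets that rose by edgeR included Ckap2 (2.95 ± 0.51), a spindle protein, Gtse1 (2.63 ± 0.46), which acts in the G2 phase, and Btg2 (1.40 ± 0.31), an antiproliferative factor (log2, SE). Ckap2 and Gtse1 are also genes of dividing cells, and of the list of cell cycle genes 15 of 32 tested rose in these livers, with a summed level between 211 and 341.6 CPM in p62KO and between 133 and 157 CPM in WT. The part of cell division in the values of the targets was not tested. Of 19 regulators 0 passed by edgeR and 1 by DESeq2, with 3 at an unadjusted p under 0.05, and the smallest p was that of Sirt1 (log2 fold change -0.63 ± 0.16, SE; edgeR adjusted p = 0.0542). In the stellate lines 1 of 33 cell cycle genes rose and 0 fell with vehicle, where 6.95% of all tested genes rose and 5.94% fell. With calcipotriol 5 of the 33 rose and 1 fell, where 10.3% of all tested genes rose and 9.53% fell. The summed level of these cell cycle genes lay between 5764 and 6747 CPM in all 8 libraries.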

How the data were processed

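Polyadenylated RNA was sequenced as single-end reads of 75 nucleotides from directional libraries, per the labels' protocols. The authors deposited raw whole-number counts, with gene symbols as rows and libraries as columns, in a liver table and a stellate cell table. The genome build was mm10, per the submitters' processing notes, and the aligner, counter, annotation and use of strand are not stated by the sources at hand. Of the symbols, 27 had become dates and were left unnamed. Library totals ran between 15207117 and 29079258 counts, so low levels such as Perp in WT stellate cells carry the largest counting error.

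Differences were tested with edgeR 4.0.16 in R 4.3.3 (glmQLFit and glmQLFTest, two-sided) after TMM scaling and filterByExpr, with Benjamini-Hochberg adjustment over all tested genes and a threshold of 0.05. One model held the 6 liver libraries, a second the 8 stellate cell libraries. The SE is the size of the log2 fold change divided by the square root of F. The code was tested on simulated data. Exon lengths and positions came from GENCODE M21 on GRCm38, and 98.3% of symbols had a position.

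The members, lists and tests were chosen with earlier results of these data known. From the lists of other targets and regulators, up to 3 passing genes per direction with the smallest p were named in each comparison, or the 1 with the smallest p where none passed. Trp53, Mdm4, Cdkn2a and Sqstm1 were always named, and from marker lists at most the gene with the smallest p. Lrat was named after its values were seen. Alternatives were 2 other scalings, no filter, the Wald test of DESeq2 1.42.0, a replicate block, each library left out, libraries that stood apart left out, only the compared groups, and chromosome medians removed.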

Additional observations from a re-analysis of the deposited data

Results flagged for a closer look

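Some genes went opposite ways in p62KO livers and p62KO stellate cells, with every p62KO library on one side of every WT library in each. These differences between tissues were not tested, since the tables were fitted separately. Such separation, above and below, held for 18.4% and 19.2% of all tested genes in liver. In stellate cells it held for 34.6% and 34.2% with vehicle and for 32.4% and 32.6% with calcipotriol. Plk2 had a log2 fold change of 1.14 in liver, against -0.76 with vehicle and -0.81 with calcipotriol in stellate cells. Trp53inp1 had -0.66 in liver, where edgeR did not call it, and 2.37 in vehicle-treated stellate cells. Apaf1 had 1.30 in liver, against -0.92 with vehicle and -1.28 with calcipotriol. It lies on chromosome 10, and with chromosome medians removed it stood at -0.27 with vehicle and -0.57 with calcipotriol and was not called. Cd82 had -0.17 in liver, where it was not called, against 1.30 with vehicle and 0.91 with calcipotriol. Ckap2 had 2.95 in liver and -0.47 in calcipotriol-treated stellate cells, where edgeR did not call it.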

How the results depend on the processing

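Scaling by DESeq2's size factors changed no call, and upper quartile scaling none either, with only Aen in WT calcipotriol against vehicle turning, to 0.031. Leaving out each library in turn gave 0 to 5 genes higher and 0 to 1 lower in liver (3 to 3669 of all genes called), 1 to 6 and 0 to 1 with vehicle (238 to 3635), 0 to 5 and 0 to 3 with calcipotriol (272 to 6052), 0 to 3 and 0 to 2 for calcipotriol in p62KO (0 to 4559) and 0 to 1 and 0 to 2 for the interaction (0 to 2514). Where this left 1 library in a group, it was taken to vary like the other groups. Perp with vehicle was the only call of 11 that held in each of these fits, and Perp with calcipotriol was lost only without WT calcipotriol library 2 (edgeR adjusted p = 0.0677). Directions turned within ranges of -0.59 to 0.63 for Ccng1 and -0.50 to 1.097 for Trp53inp1 (p62KO against WT, calcipotriol), and -0.0322 to 0.0503 for Aen, -0.031 to 0.15 for Mdm2 and -0.19 to 0.026 for Plk2 (calcipotriol in WT), -0.036 to 0.49 for Cdkn1a (calcipotriol in p62KO) and -0.18 to 0.0549 for Plk2 and -0.19 to 0.59 for Bax (interaction).

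Without both libraries that stood apart, lower genes were 2 with vehicle (5459 of all genes called), higher genes 6 with calcipotriol (5606), and 5 and 283 of all genes were called for calcipotriol in p62KO and WT, with Plk2 in p62KO at 0.0060, Aen in WT at 0.0093 and the Plk2 interaction at 0.084. In that fit each p62KO group held 1 library, taken to vary like the WT pairs, so its counts do not measure the spread of p62KO libraries. With only the calcipotriol groups in the fit, 1 gene rose, 0 fell and 1293 of all genes were called. With chromosome medians removed 980 of all genes were called with vehicle and 1367 with calcipotriol, where 1 gene rose and 1 fell. There Mdm2 stood at 0.32 with vehicle, and Ccng1 at -0.0098 and Trp53inp1 at -0.094 with calcipotriol. Without a filter, 4 genes rose with calcipotriol, 6 and 3 of all genes were called for calcipotriol in p62KO and WT, and Aen in WT was at 0.0043. DESeq2 called 1 lower gene in liver (2442 of all genes), 5 higher with calcipotriol, 11 higher and 4 lower other targets in liver, 14 and 4 with vehicle, 6 lower regulators with vehicle, and 50 and 16 of all genes for calcipotriol in p62KO and WT. CPM on unscaled totals moved 10 of 60 group levels by more than 1 SD, and scaling both tables together 48 of 60. The causes of these shifts were not tested.

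The labels do not say whether replicate numbers pair the samples, and the main fits took them as unpaired. Deviations of same-numbered livers correlated at 0.206, -0.221 and 0.152, and those of stellate groups between -0.19 and 0.462. With so few libraries these correlations cannot settle whether samples were paired. With the replicate number as a block, 639 of all genes were called in liver, where Zmat3 had an adjusted p of 0.057 and Cdkn1a of 0.039, and no other call of the 10 genes changed.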
